A study of Mus musculus with 5 samples.

Results

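Unnamed transcript models are features of the expression tables that carry only a serial name, such as HAG_042880, and no gene symbol. Those taken here have a name made of HAG, HND or HNG and a number, and a mean of at least 5 FPKM (fragments per kilobase of transcript, scaled to library depth) over 3 libraries of blood stem and progenitor cells. There were 461 of them among 5098 unnamed models and 38166 features. By prefix they were 153 HAG, 23 HND and 285 HNG models. The sources used here do not say what the prefixes stand for. The models were thus chosen by their FPKM in these 3 libraries, so that level is given as a description and supports nothing. HNG_024929 lay just above the floor at 5.02 FPKM and HNG_007848 just below it at 4.996 FPKM.

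The cells came from C57BL/6 mice, and polyA-selected RNA was sequenced in 5 libraries. KSL cells are the c-Kit+, Sca-1+, lineage-negative cells of bone marrow, the fraction that holds blood stem cells. Sca-1+ cells from mice injected with 5-FU, a drug toxic to cycling cells, received a GFP-marked retrovirus and were kept in culture medium for 2 days before KSL-GFP+ cells were sorted. There was 1 library each for a knockdown control (Control-KD) and for knockdown of 2 long non-coding RNAs, LncHSC-1 (LncHSC-1-KD) and LncHSC-2 (LncHSC-2-KD). Below, values for KSL cells are given in that order. The other 2 libraries are technical replicates of 1 sample of Gr1+ granulocytes sorted from bone marrow at 12 months, given neither 5-FU, virus nor culture by the labels. B cells, which the design also names, were not analysed here. No source used here says which features are LncHSC-1 and LncHSC-2, so no model was identified with either and the knockdowns could not be checked.

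The KSL tables summed to 22629745, 22306188 and 20529584 scaled counts, and the granulocyte tables to 40414961 and 40394825. All 10 markers of stem and progenitor cells that were looked up were at 5 FPKM or more in each KSL library, Kit at 67.6, 59.1 and 62.0 FPKM and Ly6a, which encodes Sca-1, at 1010.1, 1211 and 1025 FPKM. Of 10 granulocyte markers, 5 reached that level in each KSL library. B lineage markers summed to 47.8, 80.1 and 49.1 FPKM and monocyte, macrophage and dendritic markers to 115, 197 and 123 FPKM, highest in the LncHSC-1 library. Megakaryocyte markers summed to 509, 651 and 626 FPKM, higher in both knockdown libraries, and erythroid markers to 87.0, 93.0 and 69.8 FPKM. T and NK markers summed to 57.1, 56.6 and 52.8 FPKM and mast cell and basophil markers to 16.7, 15.2 and 15.5 FPKM. No marker of any of these lists was at 0 in all 3 KSL libraries. In bulk RNA, fewer cells of a type and less RNA per cell cannot be told apart. The part of other cells in the differences below was not tested.

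As background, a transcript without a gene symbol can be a long non-coding RNA, an extension of a known gene, RNA from the strand opposite a gene, or a copy of a gene scattered elsewhere in the genome. Many mammalian promoters are open in both directions, so that a non-coding RNA starts close to a coding gene and runs away from it. Such promoters are often rich in CG and lack a TATA box. Antisense RNAs instead overlap a gene on the other strand, often at its 3′ end, and can be told from the gene's own RNA only where the strand of the reads is used in counting. Whether it was used here is not given in the sources, so for each antisense model below its reads and those of its partner gene cannot be told apart.

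Among the models, 15 began within 1 kb of the start of a gene on the opposite strand and ran away from it, and 9 of these overlapped no named feature. The windows shown are the 250 bases before the gene's start for 3 of the 4 of these with a mean count of at least 50, because they are the stretch that such a model and its gene share or lie beside. They are read on the gene's strand from RefSeq GRCm38.p6, while the models' own positions are in mm9. CG is in capitals. Cpsf2 encodes a subunit of the factor that cleaves mRNA before polyadenylation, Cggbp1 a DNA-binding protein of CGG repeats, and Selenoi (Ept1 in the files) an enzyme of phospholipid synthesis.
Cpsf2, with HND_000876, chr12:101975724-101975973: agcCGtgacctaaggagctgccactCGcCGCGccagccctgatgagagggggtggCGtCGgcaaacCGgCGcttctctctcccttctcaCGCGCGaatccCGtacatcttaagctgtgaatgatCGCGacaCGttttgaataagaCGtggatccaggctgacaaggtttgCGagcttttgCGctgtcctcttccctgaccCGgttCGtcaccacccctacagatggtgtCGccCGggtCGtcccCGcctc
Cggbp1, with HND_001554, chr16:64851751-64852000: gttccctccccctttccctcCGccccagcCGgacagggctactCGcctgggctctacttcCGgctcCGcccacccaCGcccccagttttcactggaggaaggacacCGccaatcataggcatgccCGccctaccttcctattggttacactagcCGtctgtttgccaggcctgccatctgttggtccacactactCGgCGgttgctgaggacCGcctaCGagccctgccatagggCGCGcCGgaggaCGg
Selenoi, with HNG_031268, chr5:30232331-30232580: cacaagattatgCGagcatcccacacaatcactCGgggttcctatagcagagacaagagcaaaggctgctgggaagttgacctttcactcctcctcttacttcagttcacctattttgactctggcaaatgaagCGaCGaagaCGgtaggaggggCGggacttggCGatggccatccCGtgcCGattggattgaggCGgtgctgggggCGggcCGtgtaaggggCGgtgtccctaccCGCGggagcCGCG
The window of Cpsf2 held 24 CG, and 12.0% of 32851 RefSeq windows of this length held as many. Those of Cggbp1 and Selenoi held 17 CG each, a number that 23.5% of the windows reached, against a median of 6. None held TATAAA on either strand, which 12.4% of the windows did. The other gene, Sspn beside HNG_034767, has 2 windows in RefSeq, so neither is shown; they held 2 and 6 CG, numbers that 81.2% and 50.4% of the windows reached, and no TATAAA. These matches describe letters only.

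The 3 models beside these windows lay at different levels. HND_000876 (chr12:103205859-103213935, minus strand, mm9) began 249 bases from the start of Cpsf2 and read 537, 495 and 595 FPKM on 1395, 1455 and 1412 estimated reads. HND_001554 (chr16:64786571-64851500, minus strand), 411 bases from Cggbp1, read 8.10, 7.66 and 6.83 FPKM. HNG_031268 (chr5:30550783-30558957, minus strand), 201 bases from Ept1, read 7.31, 7.49 and 9.13 FPKM. All 3 stayed within 1.5-fold of control in both knockdown libraries, as did 98.9% of all features with at least 50 counts in LncHSC-1 and 99.5% in LncHSC-2. HND_001554 and HNG_031268 were picked after their values were seen.

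The FPKM of these models went with their length. The length of a model was recovered from the granulocyte tables, where FPKM is the count per kilobase over 50 M, for 438 of the 461. The other 23 were at 0 in both granulocyte replicates and so gave no length. Length ran from 94 to 11085 bases with a median of 484, against 2700 for the 8692 named features at the same floor, and 162 models were shorter than 300 bases. Dividing the KSL counts by that length gave a second level, here called the length-based level, on the same scale as FPKM for long transcripts. The deposited FPKM was a median of 18.9 times this level for models under 200 bases, 3.66 times from 200 to 300 bases, 1.35 times from 500 to 1000 bases and 1.02 times from 2000 bases up. For 220 models FPKM was at least 2 times the length-based level and for 100 at least 10 times. By the length-based level, 243 of the 438 reached 5.

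**Figure D1:**
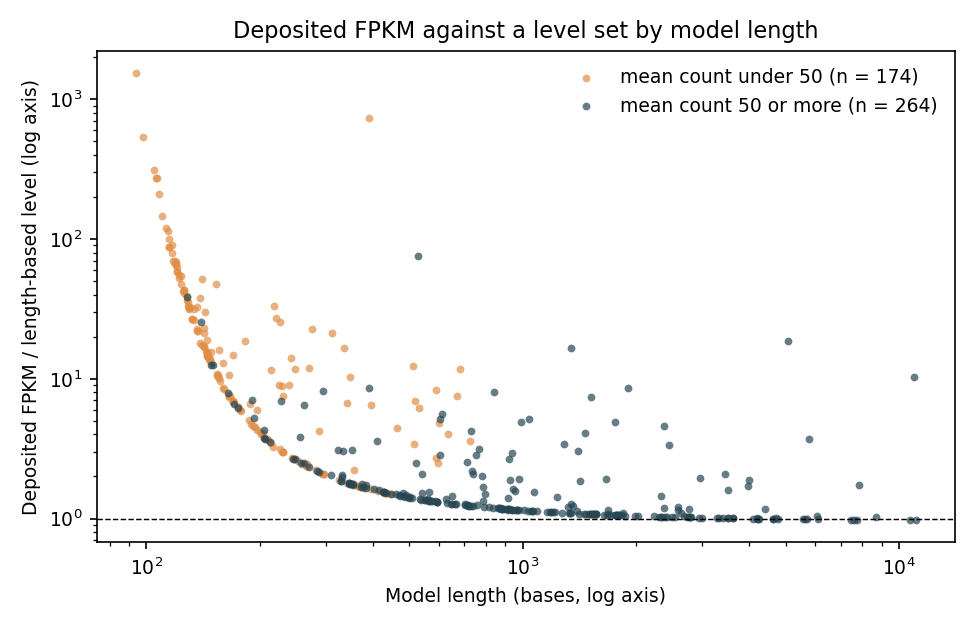
Deposited KSL FPKM divided by the length-based level (vertical, log axis) against model length in bases (horizontal, log axis) for the 438 models with a length, 1 point per model, orange for a mean count under 50 and dark for 50 or more. The ratio falls from a median of 18.9 under 200 bases to 1.02 from 2000 bases up, and most models under 200 bases have few counts.

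Many models, most often the short ones, rested on few reads. Of the 461, 267 had a mean of at least 50 scaled counts and 194, or 42.1%, had fewer, against 0.403% of named features at the same floor. The mean was under 10 counts in 114 models and at most 1 estimated read in 31. HNG_015337 shows how far this goes. Its 94 bases held 0, 0 and 1 estimated reads, and the single read was deposited as 711 FPKM. HND_003458 (117 bases, chr7:148363580-148364200, minus strand) read 876, 705 and 947 FPKM on 32, 33 and 29 estimated reads, a length-based level of 11.2, 9.93 and 10.8. Models under 50 counts were treated as unreliable for ratios and are counted apart. These 2 were chosen after their values were seen.

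Position set the prefixes apart. By the model coordinates of the granulocyte tables, 274 models (59.4%) overlapped a named feature, 268 of them only on the opposite strand. Among the 4637 unnamed models below the floor, 29.8% did. HAG models overlapped a gene on the opposite strand in 152 of 153 cases, and 142 of their partners are protein-coding by RefSeq. The exception, HAG_042703 (chr9:106333538-106333896, minus strand), lay 1431 bases from Acy1 and read 298, 329 and 309 FPKM. HNG models overlapped a named feature in 116 of 285 cases, and all 116 partners carried predicted, clone or pseudogene symbols, 91 of them typed as pseudogene by RefSeq. HND models lay apart from named features in 17 of 23 cases.

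The HAG models lay mostly at the 3′ ends of their partner genes. Of the 152, 99 reached or crossed the 3′ end, 46 lay inside the gene, 4 crossed the 5′ end and 3 covered the gene. Over all prefixes 120 models reached or crossed a 3′ end, by a median of 274 bases, and 91 of them reached less than 1 kb past it. Below the floor 99.9% of 964 HAG models lay over a named feature, and HNG models overlapped one in 12.7% of 3058 cases. Position at 3′ ends was not counted below the floor, so it is not read as a trait of the models above it. HNG models more often covered a named feature, in 53 cases. The locus column of the KSL tables was wider than the model in 246 cases, since one locus is shared by neighbouring features; by that column 270 models overlapped a named feature. The widest loci were those of HAG_001764 in Cntnap5b, with 713178 bases for a model of 155, HAG_006278 in Rtn4, with 333136 for 591, and HAG_012924, with 327637 for 287. The narrowest were those of HND_000136, HNG_032782 and HNG_045492, at 169, 184 and 192 bases, each with a mean count under 10.

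**Figure D2:**
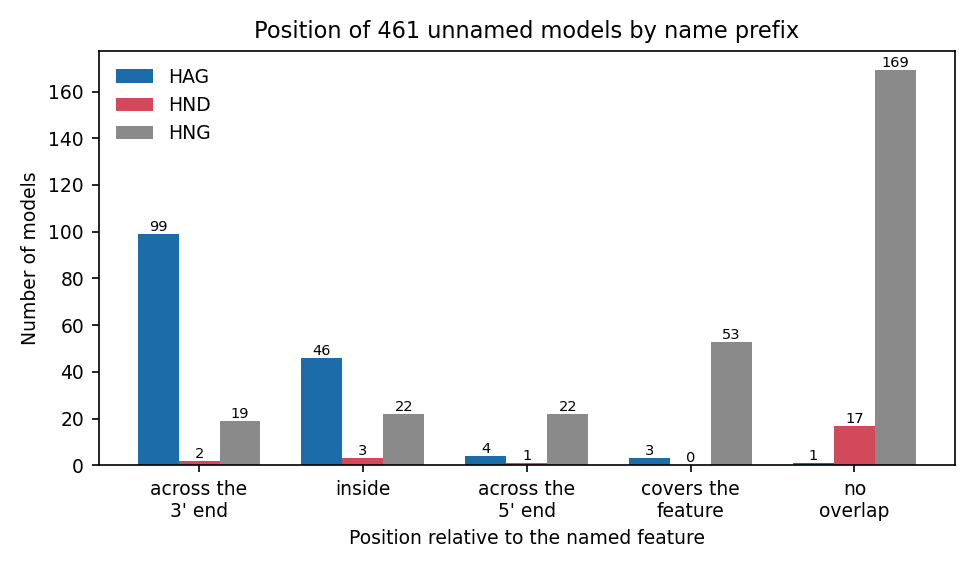
Number of unnamed models (vertical) by position relative to a named feature (horizontal), with 1 bar per prefix: HAG blue, HND red, HNG grey. HAG models stand at the 3′ end of the feature in 99 cases, and HNG models overlap no named feature in 169.

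By length-based level the highest model was HNG_024632 (chr3:5860355-5860770, plus strand, 207 bases), which lay 284116 bases from the nearest named feature, Pxmp3. It read 988, 428 and 1194 by that level and 3632, 1565 and 4560 as deposited FPKM, on 4981, 2514 and 5694 estimated reads. Next came HAG_042880 (chr9:123370567-123371726, minus strand), inside Lars2, the mitochondrial leucyl-tRNA synthetase, at 407, 162 and 480. Both were lowest in the LncHSC-1 library. HND_000876 beside Cpsf2 followed at 177, 158 and 189. HNG_032851 (chr6:66824892-66825953, plus strand), 20438 bases from Gng12, stood at 152, 165 and 164, level across the libraries.

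The deposited FPKM ordered the models otherwise. Its highest value belonged to HND_003089 (chr6:3151198-3151551, minus strand, 128 bases), at 5776, 1240 and 5802 FPKM but 157, 36.0 and 142 by length-based level. HNG_009952 (chr13:91401336-91402618, plus strand, 526 bases) read 366, 346 and 422 FPKM against 5.15, 4.89 and 5.04. HNG_025818 (chr3:53496590-53496935, minus strand, 140 bases) read 975, 819 and 1100.5 FPKM against 39.0, 34.5 and 40.0. HAG_045116 (chrX:103398603-103399159, minus strand), which runs 121 bases past the 3′ end of the glycolytic gene Pgk1, read 393, 304 and 377 FPKM against 48.9, 39.9 and 43.2. HNG_009875 (chr13:73737703-73738054, plus strand) read 570, 547 and 555 FPKM on 73, 86 and 61 estimated reads and has no length in the tables used. In these 5 models, length-based levels and reads place them far lower than FPKM does.

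Several models with many reads differed little between the libraries. HND_002728 (chr5:3526154-3531263, plus strand, 4628 bases), 3929 bases from the cell cycle kinase gene Cdk6, read 65.9, 63.8 and 62.0 FPKM on 7466, 8431 and 6642 estimated reads. HAG_005391 (chr11:82791984-82796382, plus strand), across the 3′ end of the schlafen gene Slfn9, read 34.2, 35.7 and 33.8 FPKM. HAG_040918 (chr9:43952487-43959968, plus strand), across the 3′ end of Cbl, a ubiquitin ligase gene that restrains cytokine receptors, read 19.6, 19.3 and 19.7 FPKM. Their length-based levels were 66.2, 64.2 and 62.3 for HND_002728 and 34.3, 35.7 and 33.9 for HAG_005391, near the FPKM. HAG_023748 (chr2:119425154-119433881, minus strand), across the 3′ end of 1700020I14Rik, read 32.0, 26.0 and 29.2 FPKM, and HAG_024230 (chr2:153592436-153594072, minus strand), inside the microtubule-binding gene Mapre1, 37.4, 36.1 and 36.3 FPKM. HAG_018819, inside the translation initiation gene Eif1a, read 28.0, 23.7 and 24.6 FPKM. HNG_018160, 690 bases from the lipid kinase gene Pik3c3, read 29.9, 34.6 and 31.7 FPKM. All 7 lay within 1.5-fold of control in both knockdown libraries. So did 98.9% of all features with at least 50 counts in LncHSC-1 and 99.5% in LncHSC-2.

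In the LncHSC-1 library, 72 of the 461 models stood 2-fold or more from control on log2(FPKM + 1), against 1.06% of all 9153 features at the floor. Of these, 39 were higher, against 0.634% of all features, and 33 lower, against 0.426%. This scale understates the change of low features. From the count columns as deposited the split was 26 higher and 27 lower, and 26 and 26 after centring. With 1 library per group there is no replicate and no test, and the interval beside a ratio is the exact binomial 95% interval of the reads, which covers counting error only and compares libraries. Most of the 72 had few reads. Of the 194 models under 50 counts, 60 were past 2-fold (30.9%), and of the 35 named features under 50 counts 22.9% were. Of the 267 models with at least 50 counts, 12 were (4.49%), against 0.325% of 8924 features with at least 50 counts. The models and features were not matched on counts, either above or below that minimum. The median log2 ratio of the 267 was −0.05, and that of the 8924 features −0.02.

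**Figure D3:**
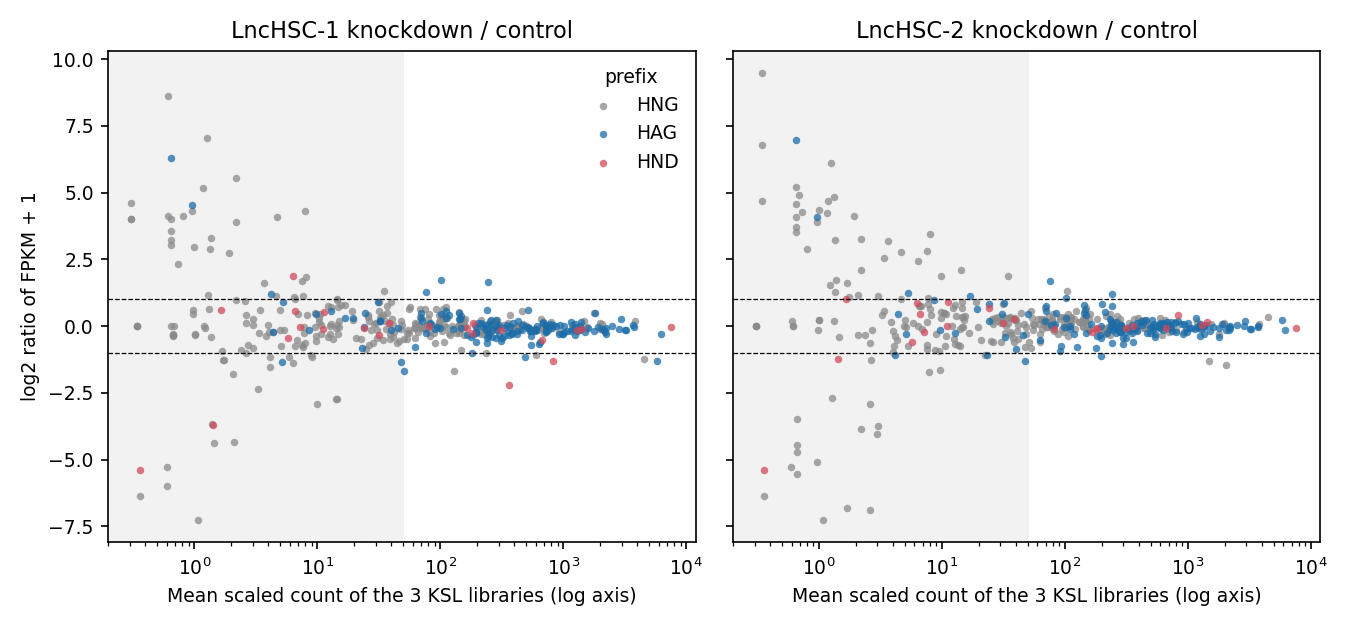
log2 ratio of FPKM + 1 against control (vertical) by mean scaled count of the 3 KSL libraries (horizontal, log axis) for the 461 models, LncHSC-1 left and LncHSC-2 right, coloured by prefix; dashed lines mark 2-fold and the shaded area holds models under 50 counts. Of the models past 2-fold, 12 of 72 and 7 of 75 lie outside the shaded area.

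Of the 12, 9 were lower in the LncHSC-1 library, where 0.123% of all 8924 features were, and they made up 9 of the 11 features lower by 2-fold. The lowest was HND_003089, 86968 bases from the nearest named feature, at 5776, 1240 and 5802 FPKM. Its log2 ratio was −2.22 (reads, −2.41 to −1.84), and the control and LncHSC-2 libraries were alike. HNG_038663 (chr8:15519565-15520342, plus strand) read 540, 167 and 600 FPKM, a log2 ratio of −1.69 (−2.10 to −1.21). HNG_039696 (chr8:15519775-15520342, minus strand), which lies in the same stretch, read 472, 234 and 644 FPKM, at −1.01 (−1.29 to −0.68). Whether it shares reads with HNG_038663 cannot be told, so these may not be separate signals among the 9. HAG_012924 (chr14:105114998-105115302, minus strand), inside D130009I18Rik, read 17.2, 4.74 and 24.2 FPKM on 56, 18 and 73 estimated reads, at −1.67 (−2.71 to −1.07); D130009I18Rik itself was listed at 0 in all 3.

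Others of the 9 had more reads or a known neighbour. HAG_042880 inside Lars2 read 514, 205 and 611 FPKM, a log2 ratio of −1.32 (−1.39 to −1.26). Lars2 itself was lower too, at 107, 49.2 and 128 FPKM, −1.10 (−1.17 to −1.07). HND_000993 (chr13:9833543-9833780, minus strand) read 604, 246 and 810 FPKM, at −1.29, and HNG_024632 stood at −1.21. HAG_000148 (chr1:36321333-36323112, plus strand) crosses the 3′ end of Neurl3, a ubiquitin ligase gene, and read 15.9, 6.51 and 15.4 FPKM, −1.17 (−1.50 to −1.08), while Neurl3 read 62.5, 69.3 and 72.0 FPKM. HNG_034767 (chr6:145880975-145882001, minus strand), 666 bases from the start of the sarcospan gene Sspn and running away from it, read 52.4, 24.1 and 65.7 FPKM, −1.09 (−1.32 to −0.93).

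These 9 models shared a pattern over the libraries. All 9 were also 2-fold lower than in the LncHSC-2 library, whose ratio to control was under 1.5-fold for each of them. A ratio that small was common there, in 91% of models and 99.5% of all features with at least 50 counts. For models picked as 2-fold below control, a level below the LncHSC-2 library thus largely follows from the choice. Besides Lars2, 1 named feature among the 12 lowest had the same pattern at far higher counts. Rn45s, the precursor of ribosomal RNA, read 470, 109 and 493 FPKM on 67557, 18262 and 67010 estimated reads, a log2 ratio of −2.10 (−2.13 to −2.08). PolyA selection is meant to leave such RNA out. The part of Rn45s in the ratios of the 9 models was not tested. Of the 12 lowest features with at least 50 counts, 10 were unnamed models.

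**Figure D4:**
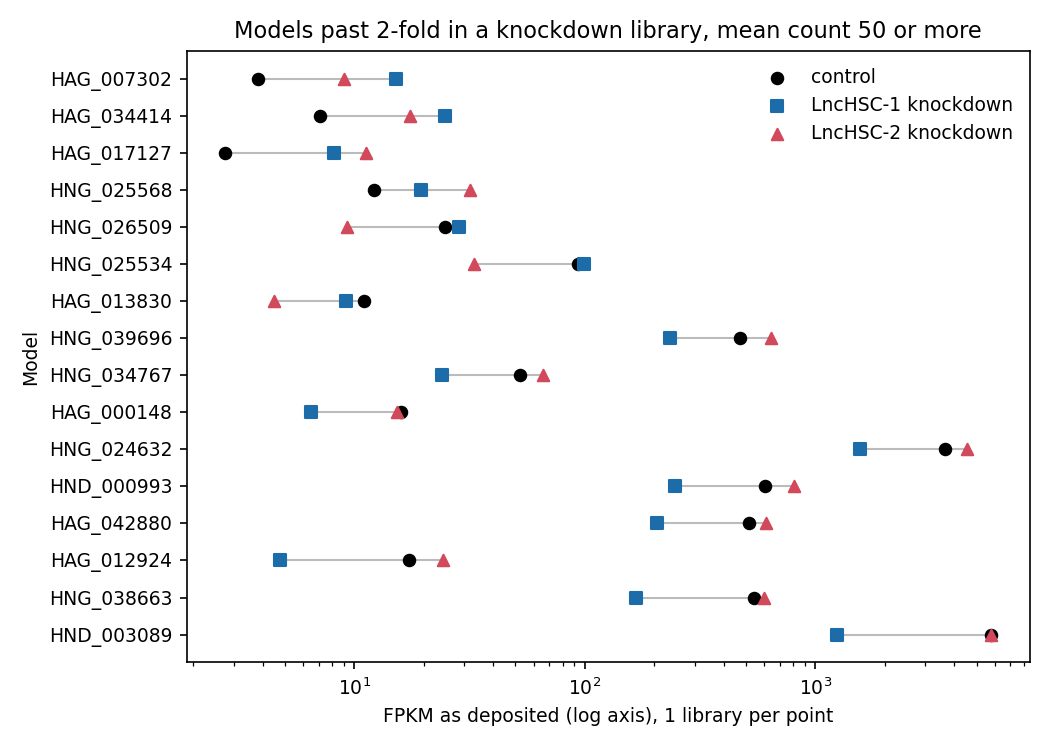
Deposited FPKM (horizontal, log axis) of the 16 models with at least 50 counts that stood 2-fold from control in a knockdown library, 1 point per library: circle control, square LncHSC-1, triangle LncHSC-2. In the lower 9 models the LncHSC-1 square stands to the left of both others.

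The 3 models higher in the LncHSC-1 library, where 0.202% of the 8924 features were, were antisense HAG models, and the same 3 were higher in the LncHSC-2 library. Both ratios use 1 control library, in which these models were low. HAG_007302 and HAG_017127 were below the FPKM floor in that library, and HAG_034414 was above it. HAG_007302 and HAG_017127 passed the floor on the mean only through the knockdown libraries, so their higher ratios are partly built in by the choice of models. The share of all features higher in both knockdown libraries was not counted. HAG_007302 (chr11:101120249-101121295, minus strand) crosses the 3′ end of Vps25, a subunit of the ESCRT-II sorting complex, and begins 586 bases from the kinase gene Wnk4. It read 3.82, 15.1 and 9.05 FPKM on 40, 186 and 89 estimated reads, log2 ratios of 1.74 (1.50 to 2.53) and 1.06 (0.68 to 1.81). HAG_034414 (chr6:117874682-117875882, minus strand) crosses the 3′ end of the splicing factor gene Hnrnpf and read 7.11, 24.7 and 17.5 FPKM on 101, 410 and 233 reads, ratios of 1.67 (1.48 to 2.13) and 1.19 (0.94 to 1.64). HAG_017127 (chr17:23952115-23952788, minus strand), inside the splicing gene Srrm2, read 2.75, 8.12 and 11.2 FPKM on 28, 96 and 106 reads, ratios of 1.28 (0.94 to 2.22) and 1.70 (1.39 to 2.66).

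The partner genes of these 3 stayed level. Vps25 read 78.1, 81.2 and 81.1 FPKM, Hnrnpf 118, 111 and 120 FPKM, and Srrm2 109, 113 and 106 FPKM. No model with at least 50 counts was 2-fold lower in both knockdown libraries. Further up but short of 2-fold in the LncHSC-1 library were HNG_009385 near the histone gene Hist1h4m at 11.0, 18.7 and 12.0 FPKM, HNG_028197 near Klhl17 at 10.7, 18.02 and 10.9 FPKM, and HNG_000228 over Gm5526 at 19.3, 31.1 and 25.7 FPKM.

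In the LncHSC-2 library, 75 models stood 2-fold or more from control, against 0.951% of all 9153 features. Of these, 48 were higher and 27 lower, against 0.601% and 0.35% of all features. From the count columns as deposited the split was 34 higher and 37 lower, and 37 and 29 after centring. Models under 50 counts were past 2-fold in 35.1% of 194 cases, and named features under 50 counts in 25.7% of 35, again not matched on counts. Of the 267 models with at least 50 counts, 7 were (2.62%), against 0.112% of 8924 features. They were 4 higher and 3 lower, where 0.056% of all these features were higher and as many lower. The median log2 ratio was 0.01 over the 267.

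The lowest 2 of these models lie on opposite strands of 1 stretch of chromosome 3, far from named features. HNG_026509 lies within the span of HNG_025534. Since use of strand is not given, whether the 2 share reads cannot be told, and they may not be separate signals. HNG_025534 (chr3:142679061-142737191, plus strand, 10949 bases) read 93.1, 99.3 and 33.0 FPKM and 8.99, 9.75 and 3.18 by length-based level, on 2397, 3030 and 801 estimated reads. Its log2 ratio was −1.47 (−1.62 to −1.38). HNG_026509 (chr3:142703250-142706127, minus strand, 2806 bases) read 24.7, 28.4 and 9.32 FPKM on 1654, 2219 and 591 reads, a log2 ratio of −1.31 (−1.54 to −1.27). In both the control and LncHSC-1 libraries lay close together and the LncHSC-2 library apart. HNG_025534 lies 52305 bases from the nearest named feature, Gm2574. In granulocytes both read under 0.1 FPKM. Among the 8924 features they ranked 2 and 3 from the lowest, behind the pseudogene Rpsa-ps10.

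The remaining models at 2-fold in the LncHSC-2 library had named partners. HAG_013830 (chr15:31202977-31204324, minus strand), across the 3′ end of the death-associated protein gene Dap, read 11.0, 9.16 and 4.47 FPKM, −1.14 (−1.67 to −0.96), while Dap read 41.9, 40.5 and 49.1 FPKM. HNG_025568 (chr3:149735545-149736647, plus strand) covers Rpsa-ps10, a ribosomal protein pseudogene on the other strand, and read 12.2, 19.5 and 31.9 FPKM. Rpsa-ps10 read 8.27, 8.62 and 0.00072 FPKM. The model held 28, 56 and 225 estimated reads and the pseudogene 182, 221 and 0. The 225 reads of the model in the LncHSC-2 library lie near the 182 and 221 of the pseudogene in the others. The model reaches only 9 and 63 bases past the ends of the pseudogene, so their reads cannot be told apart. Whether the same reads were split otherwise between them in the LncHSC-2 library was not tested. The log2 ratio of the model was 1.31 from FPKM, but its reads gave an interval of 2.52 to 3.71, so FPKM and counts disagree on the size.

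Several models came close to 2-fold in the LncHSC-2 library without reaching it. HAG_026131 at the ribosomal protein gene Mrpl9 read 7.40, 6.87 and 3.47 FPKM, HAG_026020 at Ubqln4 read 7.66, 5.46 and 3.87 FPKM, and HNG_032429 at Gm9825 read 27.0, 19.2 and 14.8 FPKM. For HNG_032429 the estimated reads were 53, 49 and 55, so its FPKM was lower where its reads were not. Above control were HAG_044005 at Tsc22d3, a glucocorticoid-induced gene, with 5.37, 5.87 and 10.5 FPKM, and HAG_006012 at Fam195b with 8.94, 12.9 and 16.0 FPKM.

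Between the knockdown libraries, 82 models differed by 2-fold, against 1.15% of 9153 features. Of these, 35 were higher in LncHSC-1 and 47 lower, against 0.535% and 0.612% of all features. From the count columns as deposited 34 were higher and 31 lower, and 29 and 35 after centring, so the split has no firm direction. With at least 50 counts 12 of 267 models differed, against 0.28% of 8924 features, 2 of them higher (0.146% of the features) and 10 lower (0.134%). Lower in LncHSC-1 were the 9 models above and HNG_017977 (chr17:84416947-84425349, minus strand), which read 12.7, 6.37 and 20.7 FPKM and differed by −1.56 (−1.87 to −1.12). Higher were HNG_025534 and HNG_026509, which may share reads. HAG_018864, across the 3′ end of the interferon-induced GTPase gene Iigp1, read 24.9, 35.6 and 18.8 FPKM beside Iigp1 at 57.2, 74.2 and 61.4 FPKM. HNG_007008 (chr11:86623867-86629681, minus strand) read 41.6, 59.7 and 33.5 FPKM. Neither of the last 2 reached 2-fold.

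Granulocytes, whose values did not choose the models, held fewer of them. All 461 were listed there, and 130 (28.2%) were at 5 FPKM or more in the mean of the technical replicates, against 55.3% of 9144 features and 56.7% of 8683 named features at the KSL floor. The granulocyte FPKM is a plain count per kilobase, unlike the KSL FPKM of short models. Of the 243 models that reached 5 in KSL cells by the length-based level, a setting chosen after seeing the data, 106 (43.6%) were at 5 FPKM or more in granulocytes, against 57.6% of 8508 named features chosen likewise. The median was 1.44 FPKM for the 461 models and 6.71 FPKM for the named features at the floor. Among the 267 models with at least 50 counts, 108 (40.4%) reached 5 FPKM. HAG models did so in 85 of 153 cases, HND in 6 of 23 and HNG in 39 of 285. Models over a named feature reached it in 36.1% of cases and the other 187 in 16.6%. In 108 of the 134 pairs described below, a model and its partner lay within 1.5-fold of each other in granulocytes. Their reads cannot be told apart, so the shares of HAG and of overlapping models are not separate from the levels of the partners. The granulocytes are 1 sample of another experiment, so levels are set side by side with no fold and no test.

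The model highest in granulocytes had no named partner. HNG_019301 (chr19:8093150-8108075, plus strand), 28624 bases from the nearest named feature, read 159 and 165 FPKM in the replicates, against 11.8, 11.7 and 17.8 in the KSL libraries. HAG_000148 at Neurl3 read 129 and 130 FPKM, HAG_038272 at the methyltransferase gene Mettl9 125 and 129, HAG_034632 at the lectin gene Clec2d 116 and 127, and HAG_032205 at the sulfotransferase gene Chst12 91.9 and 88.6. HND_003089 read 103 and 104 FPKM. The replicates stayed close in all 6.

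At the other end, 23 models were listed at 0 in both granulocyte replicates, 4.99% of the models against 0.317% of the 9144 features, and 3 of the 23 had at least 50 KSL counts. HNG_031730 (chr5:108794351-108797994, minus strand) held 350, 652 and 394 estimated reads in KSL cells at 4.27, 6.83 and 5.09 FPKM. HNG_009875 and HAG_001867, which lies inside AA986860 and read 4.80, 6.15 and 5.61 FPKM, were the other two. The granulocyte counts of HND_000993, HNG_025534 and HNG_026509 were not 0 but gave at most 0.188 FPKM in either replicate.

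In more pairs the model and its partner gene stood close in granulocytes than in KSL cells, on FPKM scales that are not made alike in the tables. In 134 pairs the model had at least 50 counts and its partner was at the KSL floor. In the control library the partner was above the model in 96 pairs and 45 pairs lay within 1.5-fold of each other, with a median log2 difference (model less partner) of −0.61. The length-based level, like the granulocyte FPKM, divides a count by model length. By that level, 37 of the 133 pairs with lengths lay within 1.5-fold in the control library. Their median was −0.82 and Pearson's r across pairs 0.244. The counts come from different experiments, and the sources do not say whether reads of overlapping features were assigned alike. The KSL and granulocyte numbers are thus not like for like. In granulocytes 108 of the 134 lay within 1.5-fold, with a median of 0.03. Pearson's r of the log2 levels across pairs was 0.209 in the control library and 0.925 in granulocytes, as a description of 134 pairs whose members share their library and may share reads. For example, HAG_000148 and Neurl3 read 15.9 and 62.5 FPKM in the control library but 129 and 124 FPKM in granulocytes. HAG_034414 and Hnrnpf read 7.11 and 118 FPKM in control, and 36.5 and 30.2 FPKM in granulocytes.

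**Figure D5:**
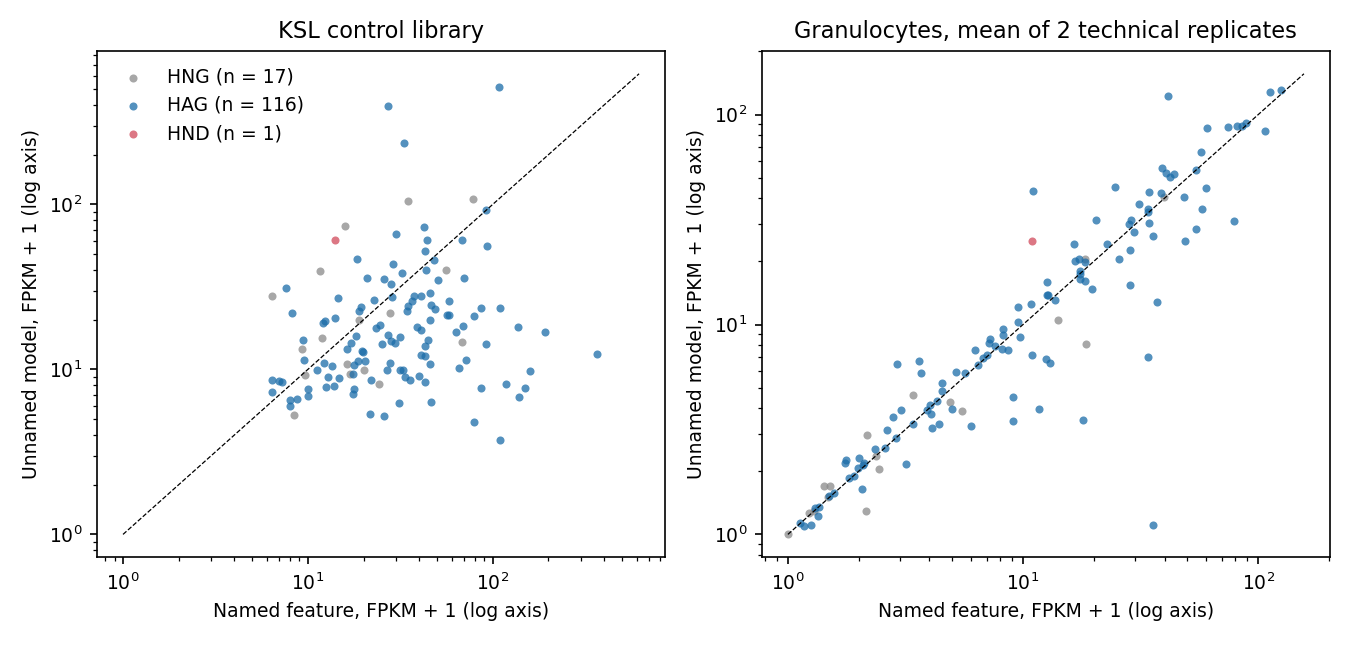
FPKM + 1 of the unnamed model (vertical, log axis) against that of its named partner (horizontal, log axis) for 134 pairs, in the KSL control library on the left and in granulocytes (mean of 2 technical replicates) on the right, coloured by prefix; the dashed line marks equal values. In granulocytes 108 pairs lie within 1.5-fold of the line and in the control library 45 do.

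The ratios of models and partners went together little. Across the 134 pairs Pearson's r of the log2 ratios was 0.193 for LncHSC-1 and −0.256 for LncHSC-2, again as a description. Each r includes 1 pair with an extreme partner. In LncHSC-1 HAG_042880 and Lars2 stood at −1.32 and −1.10, and in LncHSC-2 HNG_025568 and Rpsa-ps10 at 1.31 and −3.21. Neither r was computed without its extreme pair, so its sign is not read as a trait of the 134 pairs. In each comparison 5 of the 134 models were past 2-fold and 1 partner was, Lars2 in LncHSC-1 and Rpsa-ps10 in LncHSC-2. In each, 133 partners lay within 1.5-fold of control, near the share of all features with at least 50 counts, 98.9% in LncHSC-1 and 99.5% in LncHSC-2. Among models with many reads that did not differ, HAG_015427 inside the interferon-induced gene Rtp4 read 91.9, 93.5 and 101 FPKM beside Rtp4 at 90.8, 96.4 and 92.1 FPKM, and HAG_013119 at Ywhaz read 71.7, 64.1 and 66.1 FPKM beside 41.7, 40.8 and 39.0 FPKM. These 2 were chosen after their values were seen.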

How the data were processed

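RNA sequencing of 5 mouse libraries was used as deposited. Per the submitters' processing notes the build is mm9 and DESeq was used, with no role given; the sources used here give no aligner, counter, annotation or use of strand. The FPKM columns, in the KSL and granulocyte tables, are the authors' values per the file headers. The deposited KSL count columns were treated as a signal, reads times 1 factor per library: 91.7% to 92.1% of values worth up to 20 reads were whole within 0.1 read at 1.08, 0.924 and 1.03 per read. Dividing gave estimated reads. The deposited granulocyte count columns are scaled, rounded numbers, treated as a score.

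Tables were joined by identifier. Ratios are log2(FPKM + 1) between single libraries, called at 2-fold, with no test; count models were not run on scaled values. Intervals (95%, exact binomial) are for the ratio of estimated reads and carry no pseudocount. Model coordinates and lengths come from the granulocyte tables, since KSL loci span neighbours; the length-based level is the KSL count per kilobase of that length, scaled to FPKM by features of 3000 bases or more. Near means within 5 kb. Promoter windows and gene types were matched by symbol to RefSeq GRCm38.p6; all 4 head-to-head pairs considered matched, 3 were printed, and no coordinates were converted. The models named are the 12 highest by FPKM, the 6 highest and lowest ratios of each comparison with at least 50 counts, the 6 highest in granulocytes, those at 0 there, the 3 with most counts per position class and the ends of the length range. The models and marker lists were chosen with earlier results of these data known. Interval code was tested on simulated data. Python 3.11.15, pandas 2.3.3 and scipy 1.17.1 were used. Alternatives covered the pseudocount, floor, count minimum, count columns, overlap definition and granulocyte replicates.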

Additional observations from a re-analysis of the deposited data

How the results depend on the processing

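The number of models past 2-fold depended on the floor and the count minimum. Models past 2-fold in LncHSC-1 against control, LncHSC-2 against control and LncHSC-1 against LncHSC-2 numbered 169, 171 and 164 at a floor of 1 FPKM; 44, 47 and 53 at 10 FPKM; 219, 216 and 212 without a floor; 12, 7 and 12 with at least 50 counts; 14, 11 and 14 with at least 20; and 13, 8 and 12 where the length-based level was at least 5, a setting chosen after seeing the data. These settings test other numbers of models. With pseudocounts of 0.1 and 5 FPKM and with the count columns, all 3 numbers stayed within 1.5 times of those reported. Models overlapping a named feature fell from 270 to 165 with named features at the floor only, and were 176 of 299 models at 10 FPKM. Models in granulocytes were 268 at 1 FPKM, and 129 to 131 with either technical replicate left out.

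Of 141 single ratios, 29 were past 2-fold. With the count columns 28 of these kept their direction and stayed past it, all but that of HNG_039696 in LncHSC-1; with a pseudocount of 5 FPKM 22 did, and none reversed under any of these settings. No paired analysis was possible because each KSL group has 1 library and the granulocyte replicates are technical. Precision is limited by reads: 42.1% of the models rest on fewer than 50 scaled counts. The intervals leave out all variation between cultures.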

Other observations

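Some models came in pairs at 1 place. In 14 places several of the 461 models shared 1 locus, and in 13 of these they lay on opposite strands. Whether models on opposite strands of 1 place share reads cannot be told. Besides the pairs on chromosomes 3 and 8 described above, HNG_025430 and HNG_026419 (chr3:124088427-124089805 on the plus and chr3:124088127-124089658 on the minus strand) read 37.4, 50.4 and 45.2 FPKM and 35.3, 30.7 and 33.5 FPKM in the control, LncHSC-1 and LncHSC-2 libraries. HNG_009275 and HNG_010118 (chr13:3298123-3298940 plus, chr13:3298114-3298899 minus) read 54.0, 49.8 and 66.3 FPKM and 15.2, 15.8 and 13.6 FPKM. These pairs were chosen after their values were seen. The 461 models took 6.15%, 4.43% and 6.82% of the FPKM sum of the 3 libraries but 0.803%, 0.75% and 0.786% of the counts.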
